A study of Homo sapiens with 4 samples.

Results

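The genes described here are the small nucleolar RNA (snoRNA) host genes and related 5′TOP noncoding RNAs of CAL27, a human cell line grown from a squamous carcinoma of the mouth. They were chosen by name, as every gene called SNHG with a number, together with GAS5, ZFAS1, DANCR, MEG3 and DLEU2. The rule found 26 genes among the 29437 in each table, of which 22 carry an SNHG name, and MEG3 was not analysed here, since no row of the tables carries it. Libraries of polyadenylated RNA came from CAL27 cells labelled CCL20-overexpression, a line made with a lentivirus (2 libraries), and from CAL27 cells labelled negative control (2 libraries). The label does not say which vector, if any, the negative control cells received. CCL20 is a chemokine that attracts cells carrying the receptor CCR6, and the comparison asks which genes differ when it is overexpressed. Nothing says that libraries of a group came from separate cultures or separate transductions, so each p-value measures only the spread between these libraries.

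A snoRNA is a short nuclear RNA that guides chemical changes of ribosomal RNA. Box C/D snoRNAs guide ribose methylation and box H/ACA snoRNAs guide pseudouridylation. Most human snoRNAs lie in introns, and a host gene is transcribed and spliced so that its introns release them. The spliced host RNA of an SNHG gene usually codes for no conserved protein. Many host genes, like the genes of ribosomal proteins and translation factors, begin transcription at a 5′ terminal oligopyrimidine (5′TOP) tract, which is a C followed by a run of C and T. Translation of 5′TOP messages is controlled by the growth kinase complex mTORC1 through the binding protein LARP1. Spliced host RNAs such as that of GAS5 are known to reach ribosomes and to be degraded there by nonsense-mediated decay.

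The start sequences of 7 of the more abundant genes that rose are shown, without SNHG6 and SNHG15, because the tract at the first base is what defines a 5′TOP RNA. Each line covers 10 bases before and 30 bases from the start of the RefSeq promoter entry in GRCh38.p14, read 5′ to 3′ on the RNA strand. Capitals mark the tract, defined as a C followed by at least 4 bases that are each C or T.
SNHG5, chr6:85678704-85678743, minus strand: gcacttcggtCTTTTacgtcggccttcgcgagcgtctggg
SNHG19, chr16:2155329-2155368, minus strand: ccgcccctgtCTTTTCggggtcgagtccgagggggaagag
SNHG8, chr4:118278752-118278791, plus strand: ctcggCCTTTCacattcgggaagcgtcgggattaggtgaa
DANCR, chr4:52712384-52712423, plus strand: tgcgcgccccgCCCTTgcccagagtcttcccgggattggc
SNHG1, chr11:62855856-62855895, minus strand: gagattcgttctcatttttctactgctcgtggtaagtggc
SNHG3, chr1:28505933-28505972, plus strand: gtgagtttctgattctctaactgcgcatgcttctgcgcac
GAS5, chr1:173869016-173869055, minus strand: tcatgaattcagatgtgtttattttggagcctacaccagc
SNHG5 and SNHG19 carried the tract exactly at the annotated first base, SNHG8 and DANCR within a few bases of it, and SNHG1, SNHG3 and GAS5 had none within 10 bases. The start used by RefSeq is not always the start of the main transcript. In GENCODE 29 (GRCh38), 6 of 29 GAS5 transcripts began downstream of the RefSeq entry with a tract, as did 1 of 3 SNHG3 transcripts and 1 of 25 SNHG1 transcripts. These starts are shown with 30 bases each.
GAS5, chr1:173867960-173867989, minus strand: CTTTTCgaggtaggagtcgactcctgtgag
SNHG1, chr11:62855450-62855479, minus strand: CTCCTgtctgcaggatttacgcgcacgttg
SNHG3, chr1:28506043-28506072, plus strand: CCTTTTTggagacagattcgcagtggtcgc

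The tract was common among these genes. The promoter table held 23 of the 26 genes, and 15 of the 23 (65.2%) had a tract starting within 10 bases of the annotated start on the RNA strand, against 33.5% of all 35116 promoters. In 6 of the 23 (26.1%) the first base was itself a C followed by at least 4 pyrimidines, against 4.07% of all promoters. These were SNHG5, SNHG19, ZFAS1 and SNHG4, whose tract begins there, and SNHG12 and SNHG18, whose tract begins before the annotated start and runs across it. On the other strand, the same motif within 10 bases occurred in 6 of the 23 (26.1%) and in 31.6% of all promoters. Over GENCODE transcripts, 31 of 254 from these genes (12.2%) began with a tract, against 2.68% of the 103841 transcripts of all tested genes. A match is a description of these letters only, and a missing match says only that the letters are not in the window.

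Total counts were 15355030 and 16870325 reads in the CCL20-overexpression libraries and 13681862 and 17860695 in the negative control libraries. CCL20, the gene named in the labels, had 372 and 303 reads in the CCL20-overexpression libraries against 188 and 202 in the negative control libraries (log2 fold change 0.95, SE 0.21, adjusted p = 0.0143). Other tested genes of about its exonic length, near 1590 nt, had a median log2 fold change of 0.77. What part length has in the CCL20 value was not tested. Squamous markers summed to 768 and 1070 FPKM in CCL20-overexpression cells and to 760 and 835 FPKM in negative control cells, with 6 of 7 at a mean of at least 1 FPKM. Of the 6 markers in each of the fibroblast, leukocyte and endothelial lists, 1 reached that level, and their sums stayed between 1.45 and 9.12 FPKM in every library. Genes with at least 1 read numbered 22378 and 21433 in the CCL20-overexpression libraries against 24747 and 24923 in the negative control libraries, and the CCL20-overexpression pair also differed more within itself, with a chi-square per gene of 38.0 against 6.45.

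Most of the host RNAs that CAL27 cells express were more abundant in CCL20-overexpression cells. Of the 26 genes, 20 reached a mean of 1 FPKM (reads scaled by exonic length and by the total of the library) and were tested, and 13 of the 20 (65%) rose and 0 fell at an adjusted p under 0.05. Over all 12168 tested genes, 16.5% rose and 15.7% fell. Among the 1576 tested noncoding genes outside this group, 9.9% rose and 10.8% fell, and their median log2 fold change was 0.12. The median log2 fold change was 0.76 over the 20 host RNAs and 0.0019 over all tested genes. Both CCL20-overexpression libraries lay above both negative control libraries, in FPKM, for 15 of the 20 (75%), against 25.8% of all tested genes, and SNHG16 was the 1 gene with the opposite separation, which 46.9% of all tested genes showed. The tests were edgeR quasi-likelihood tests with Benjamini-Hochberg adjustment over all tested genes. Their fold changes use TMM factors for the libraries, so they exceed the ratios of the FPKM values, which are scaled by total count. The ratio of mean FPKM was 2.16 for SNHG5 and 0.99 for SNHG4, beside fold changes of 2.49 and 1.14. With scaling by total count the median log2 fold change was 0.56 over the 20 and -0.20 over all tested genes. The count of falls was also 0 at an unadjusted p under 0.05 and in DESeq2, and rises numbered 16 at an unadjusted p under 0.05 and 14 in DESeq2. The count depends on each negative control library, being 3 without negative control replicate 1 (SNHG5, SNHG8 and SNHG19) and 4 without negative control replicate 2 (SNHG5, SNHG6, SNHG8 and SNHG11). Over all tested genes 2.61% rose in the fit without negative control replicate 1, and 3.74% in that without negative control replicate 2. The median log2 fold change of the 20 host RNAs was 0.89 without negative control replicate 1 and 0.68 without negative control replicate 2. It was 0.70 without CCL20-overexpression replicate 1 and 0.74 without CCL20-overexpression replicate 2. Library values show relative abundance in bulk RNA, so a change per cell and a change in the share of expressing cells cannot be told apart.

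Together the 26 host genes took a small but larger share of all reads in CCL20-overexpression cells. The share was 0.112% and 0.104% in the CCL20-overexpression libraries and 0.0774% and 0.0723% in the negative control libraries, without overlap. SNHG5 and GAS5 made up 30.7% and 28.9% of that sum in the CCL20-overexpression libraries, against 23.9% and 24.2% in the negative control libraries.

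**Figure D1:**
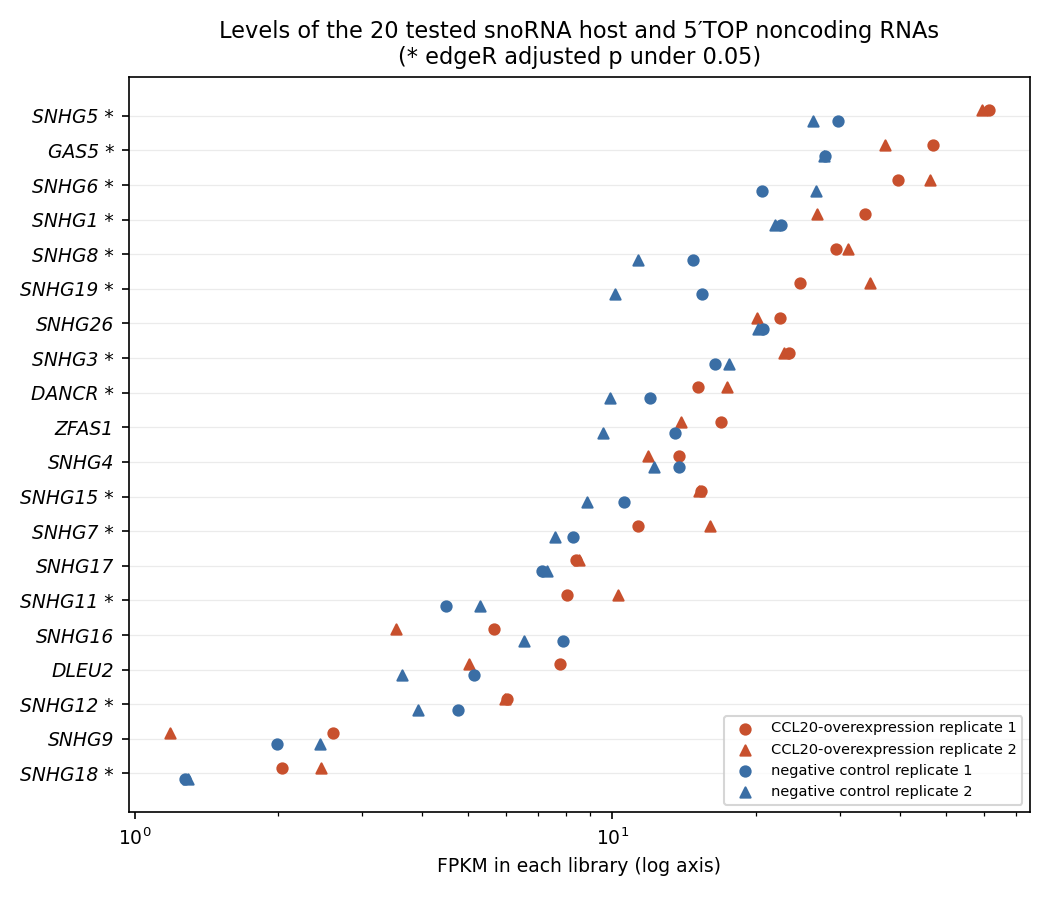
FPKM on a log axis of the 20 tested host and 5′TOP noncoding RNAs in each of the 4 libraries, ordered by mean level, with red symbols for CCL20-overexpression and blue symbols for negative control. Circles are replicate 1 and triangles replicate 2, and a star marks the 13 genes past the threshold. The red symbols of 15 genes lie wholly to the right of the blue ones, and those of SNHG16 lie wholly to the left.

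The 4 most abundant host RNAs, SNHG5, GAS5, SNHG6 and SNHG1, all carry box C/D snoRNAs. SNHG5 (ENSG00000203875, chromosome 6, 85660950 to 85678748, minus strand), host of SNORD50A and SNORD50B, had the highest mean level of the group. Its level was 61.5 and 59.4 FPKM in the CCL20-overexpression libraries, against 29.7 and 26.4 FPKM in the negative control libraries. The groups were far apart relative to the spread within each. SNHG5 rose 2.49-fold (log2 fold change 1.31, SE 0.16, adjusted p = 0.00433), on 2648 and 2811 reads against 1140 and 1322 reads.

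GAS5 (ENSG00000234741, chromosome 1, 173863900 to 173868882, minus strand) accumulates in growth-arrested cells, as its name says, and its RNA can act as a decoy for the glucocorticoid receptor. RefSeq places 11 snoRNA genes in its span, 10 of them box C/D. GAS5 had 46.9 and 37.3 FPKM in CCL20-overexpression cells and 27.96 and 27.83 FPKM in negative control cells. The CCL20-overexpression libraries differed from each other by about as much as the lower of them differed from the controls. Its rise was 1.73-fold (log2 fold change 0.79, SE 0.17, adjusted p = 0.0115), and 1 antisense gene shares 1.16% of its exonic bases.

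SNHG1, host of a cluster of box C/D snoRNAs, had 33.8 and 26.8 FPKM in CCL20-overexpression cells against 22.6 and 22.0 FPKM in negative control cells. The groups did not overlap, but CCL20-overexpression replicate 2 lay close to the controls. SNHG1 rose 1.56-fold (log2 fold change 0.65, SE 0.17, adjusted p = 0.0229). SNHG6, host of SNORD87, had 39.7 and 46.4 FPKM in CCL20-overexpression cells against 20.6 and 26.7 FPKM in negative control cells. Both CCL20-overexpression values were well above both controls, and the rise was 2.10-fold (SE of the log2 value 0.21, adjusted p = 0.00881). Reads of SNHG6 may include those of other genes, since 36.4% of its exonic bases are shared, mostly with MCMDC2 on the opposite strand, and the strand setting of the counting is not given in the sources used here.

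SNHG19 is a short host of SNORD60 with a single annotated transcript of 342 nt. It had 24.8 and 34.7 FPKM in CCL20-overexpression cells, against 15.4 and 10.2 FPKM in negative control cells. Its counts were small, at 130 and 200 reads against 72 and 62 reads, and the groups did not overlap. At 2.72-fold it had the largest log2 fold change of the tested host RNAs, 1.44, and also a wide SE of 0.31 (adjusted p = 0.0128).

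SNHG18, host of SNORD123 and the scarcest tested RNA of the group, had 2.04 and 2.46 FPKM in CCL20-overexpression cells and 1.27 and 1.29 FPKM in negative control cells. The groups were separate on 61 and 81 reads against 34 and 45 reads. It rose 2.03-fold (log2 fold change 1.02, SE 0.32, adjusted p = 0.0405), close to the threshold. It passed in 8 of the 16 alternatives and not in DESeq2 (adjusted p = 0.0740), with scaling by total count, on the TPM scale, with either length correction, or with either negative control library or CCL20-overexpression replicate 2 left out.

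Hosts of box H/ACA snoRNAs were also higher in CCL20-overexpression cells. SNHG8, host of SNORA24, had 29.4 and 31.1 FPKM in CCL20-overexpression cells and 14.7 and 11.3 FPKM in negative control cells. Its groups were well separated, and it rose 2.69-fold (log2 fold change 1.43, SE 0.21, adjusted p = 0.00477). SNHG3, host of SNORA73A and SNORA73B, had 23.5 and 22.9 FPKM in CCL20-overexpression cells and 16.4 and 17.5 FPKM in negative control cells. Libraries of a group lay close together for SNHG3, so that a rise of 1.58-fold passed (log2 fold change 0.66, SE 0.16, adjusted p = 0.0187), although RCC1 shares exons with it.

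DANCR, host of SNORA26, is named for keeping progenitor cells from differentiating, in epidermis among other tissues. It had 15.1 and 17.4 FPKM in CCL20-overexpression cells, against 12.03 and 9.87 FPKM in negative control cells. The groups did not overlap, and it rose 1.72-fold (log2 fold change 0.78, SE 0.20, adjusted p = 0.0222).

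SNHG15, host of SNORA9, had 15.3 and 15.2 FPKM in CCL20-overexpression cells and 10.6 and 8.87 FPKM in negative control cells, and rose 1.81-fold (SE of the log2 value 0.18, adjusted p = 0.0106). SNHG7, host of SNORA17A and SNORA17B, had 11.3 and 16.02 FPKM in CCL20-overexpression cells and 8.28 and 7.58 FPKM in negative control cells, and rose 2.001-fold (SE of the log2 value 0.23, adjusted p = 0.0142). The groups were separate for both genes, and FAM69B on the opposite strand shares exonic bases with SNHG7, for which 31.4% are shared in all. SNHG11, host of SNORA60 and SNORA71E, had 8.03 and 10.3 FPKM in CCL20-overexpression cells and 4.50 and 5.27 FPKM in negative control cells. Both CCL20-overexpression libraries again lay above both controls, and the rise was 2.17-fold (SE of the log2 value 0.22, adjusted p = 0.00975). SNHG12, which hosts snoRNAs of both classes, had 6.03 and 5.96 FPKM in CCL20-overexpression cells and 4.76 and 3.92 FPKM in negative control cells. It rose 1.59-fold without overlap (SE of the log2 value 0.19, adjusted p = 0.0315).

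Counted by class, 5 of 8 tested hosts of box C/D snoRNAs alone rose (median log2 fold change 0.83), as did 6 of 9 hosts of box H/ACA snoRNAs alone (median 0.78) and both hosts with snoRNAs of the 2 classes, GAS5 and SNHG12. A difference between the classes was not tested. Counts by tract depend on which annotated start is used. From RefSeq starts, 8 of 14 tested genes with a tract within 10 bases rose (median 0.76), as did 3 of 3 without one (GAS5, SNHG1 and SNHG3, median 0.66). From GENCODE starts, 10 of 13 tested genes with a transcript that begins with a tract rose (median 0.79), GAS5, SNHG1 and SNHG3 among them, as did 3 of 7 without such a transcript (DANCR, SNHG7 and SNHG15; median over the 7, 0.74). SnoRNAs themselves had 0 rows in the tables, so host levels here say nothing of the released snoRNAs.

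The remaining 7 tested genes did not pass the threshold. ZFAS1 (ENSG00000177410, chromosome 20, 49278178 to 49295738, plus strand) is named for its place antisense to the start of ZNFX1 and hosts 3 box C/D snoRNAs. Its level was 16.9 and 14.0 FPKM in CCL20-overexpression cells, against 13.6 and 9.56 FPKM in negative control cells. The groups were separate by a narrow margin, and the log2 fold change was 0.62 (SE 0.22, adjusted p = 0.0585). For ZFAS1, 46.9% of exonic bases are shared with other genes, among them ZNFX1 on the opposite strand.

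DLEU2 (ENSG00000231607, chromosome 13, 49982552 to 50125720, minus strand) differs from the others in hosting the microRNAs miR-15a and miR-16-1 rather than snoRNAs. It had 7.76 and 5.02 FPKM in CCL20-overexpression cells against 5.14 and 3.63 FPKM in negative control cells. The groups overlapped, and the log2 fold change was 0.74 (SE 0.25, adjusted p = 0.0535). ZFAS1 and DLEU2 both passed in DESeq2 (adjusted p = 0.0456 for ZFAS1 and 0.0271 for DLEU2), so their side of the threshold depends on the test.

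SNHG16 (ENSG00000163597, chromosome 17, 76557766 to 76565348, plus strand), host of 3 SNORD1 snoRNAs, was the exception in direction. It had 5.65 and 3.53 FPKM in CCL20-overexpression cells, against 7.88 and 6.55 FPKM in negative control cells. Both CCL20-overexpression libraries lay below both controls, and the log2 fold change was -0.46 (SE 0.23, adjusted p = 0.158). A protein-coding gene on the opposite strand, AC015802.6, overlaps its exons, and 33.4% of its exonic bases are shared.

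SNHG17, host of SNORA71 snoRNAs, had 8.39 and 8.52 FPKM in CCL20-overexpression cells against 7.14 and 7.32 FPKM in negative control cells (log2 fold change 0.43, SE 0.17, adjusted p = 0.0895). SNHG26, host of SNORD93, had 22.5 and 20.1 FPKM in CCL20-overexpression cells against 20.7 and 20.2 FPKM in negative control cells (log2 fold change 0.26, SE 0.16, adjusted p = 0.236). SNHG17 was separate between groups by little, while SNHG26 overlapped. SNHG4, host of SNORA74 snoRNAs, had 13.8 and 11.9 FPKM in CCL20-overexpression cells against 13.8 and 12.3 FPKM in negative control cells (log2 fold change 0.19, SE 0.17, adjusted p = 0.406). SNHG9, host of SNORA78, had only 22 and 11 reads in CCL20-overexpression cells against 15 and 24 reads in negative control cells (log2 fold change -0.05, SE 0.53, adjusted p = 0.946). Both overlapped between groups, and the wide SE of SNHG9 leaves a change of either sign undetectable at this depth.

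A further 6 genes stayed under a mean of 1 FPKM and were not tested. SNHG20, just outside the filter at a mean of 0.984 FPKM, had 1.20 and 0.828 FPKM in CCL20-overexpression cells and 0.937 and 0.975 FPKM in negative control cells. SNHG18, just inside it, had a mean of 1.77 FPKM. SNHG10 had 0.569 and 1.22 FPKM in CCL20-overexpression cells and 0.977 and 0.518 FPKM in negative control cells, so that the groups of both scarce genes overlapped. The other 4 were at the edge of detection. SNHG28 had 1 and 3 reads in CCL20-overexpression cells against 12 and 31 in negative control cells, and SNHG14, the long host of the SNORD115 and SNORD116 clusters of the Prader-Willi region, had 0 and 1 reads against 8 and 6. SNHG21 had 0 and 2 reads against 1 and 3, and SNHG22 had 0 and 0 reads against 4 and 3. These counts are too small for a comparison by gene, except that SNHG28 passed as lower when all genes were tested without a filter. The SNHG28 gene counted here is annotated as protein-coding, and 55.5% of its exonic bases are shared. Among the genes that share them are SLAMF8 on the opposite strand and a lincRNA also named SNHG28 on the same strand.

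A trend with gene length ran through the fold changes of the tested genes. From about 918 nt upwards, shorter genes tended to be higher in CCL20-overexpression cells and longer genes lower, while the shortest genes did not follow. For the other tested genes sorted into 20 bins by exonic length (the merged length of all annotated exons), the median log2 fold change was 0.11 near 432 nt, 0.74 near 918 nt, 0.48 near 2482 nt, 0.08 near 3998 nt and -0.66 near 14422 nt. The mean exonic length of the gene behind a read was 5313 and 5013 nt in the CCL20-overexpression libraries against 6226 and 6130 nt in the negative control libraries. The tested host genes have a median exonic length of 3222 nt, and of the 7007 tested genes within their range of length 1746 rose and 371 fell, with a median log2 fold change of 0.30. What part the trend has in the rise of the host RNAs was not tested.

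Within the host RNAs, 10 of 13 with an exonic length under 4000 nt rose (median log2 fold change 0.86), and 3 of 7 with a longer one did (SNHG3, SNHG7 and SNHG12, median 0.66). Medians of the other tested genes also differed by length, at 0.48 near 2482 nt and 0.0046 near 4392.5 nt. SNHG19, SNHG5 and SNHG7 lay well above the median of genes of like length, while SNHG16, SNHG9 and SNHG26 lay below it. Exonic length overstates the length of many RNAs, in this group as among all tested genes. The annotated transcripts have a median of 785 nt over the tested host genes, against a median exonic length of 3222 nt. Over all tested genes these medians were 952 nt and 4583.5 nt.

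**Figure D2:**
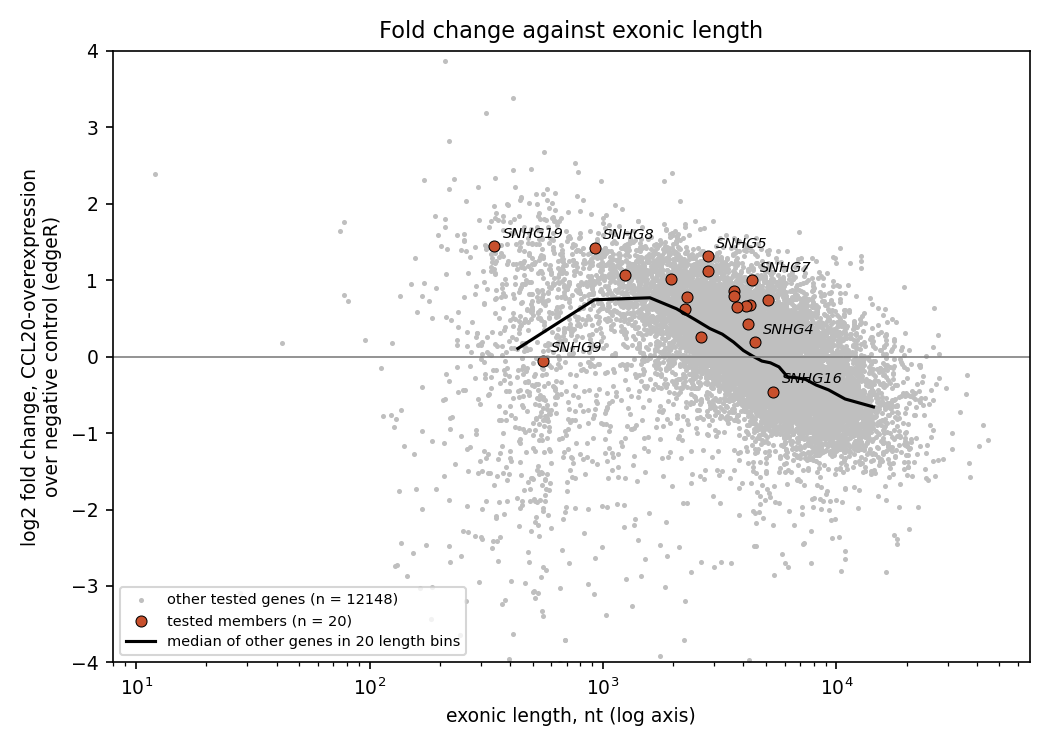
Log2 fold change of CCL20-overexpression over negative control against exonic length in nt (log axis) for the 20 tested host and 5′TOP noncoding RNAs (red) and the 12148 other tested genes (grey), of which 20 lie outside the vertical range shown. The black line is the median of the other genes in 20 length bins, which falls from 0.77 near 1590 nt to -0.66 near 14422 nt, and SNHG19, SNHG5 and SNHG7 lie well above it.

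With a spline on exonic length as an offset in each library, the median log2 fold change of the 20 host RNAs was 0.56, and 6 rose and 0 fell, against 9.95% of all tested genes that rose and 5.93% that fell in that fit. The 6 were SNHG5 (log2 fold change 0.94, adjusted p = 0.0115), SNHG8 (1.005, adjusted p = 0.0196), SNHG19 (1.41, adjusted p = 0.0229), SNHG7 (0.92, adjusted p = 0.0289), SNHG15 (0.63, adjusted p = 0.0443) and SNHG11 (0.74, adjusted p = 0.0483). GAS5 then had a log2 fold change of 0.56 (adjusted p = 0.0563), and DANCR one of 0.35 (adjusted p = 0.225). With the median annotated transcript length in place of exonic length, 10 rose, against 14.5% of all tested genes, and DANCR, GAS5, SNHG3 and SNHG6 joined those 6. When libraries were put on the TPM scale (total counts replaced by the sum of counts over exonic length), which moves the median of all tested genes to -0.49 on the log2 scale, 3 host RNAs rose (SNHG5, SNHG8 and SNHG19), against 4.11% of all tested genes, and SNHG16 fell, as did 37.1% of all tested genes. All 13 RNAs that rose kept a positive log2 fold change in all 16 alternatives, and SNHG5 and SNHG8 passed the threshold in each.

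**Figure D3:**
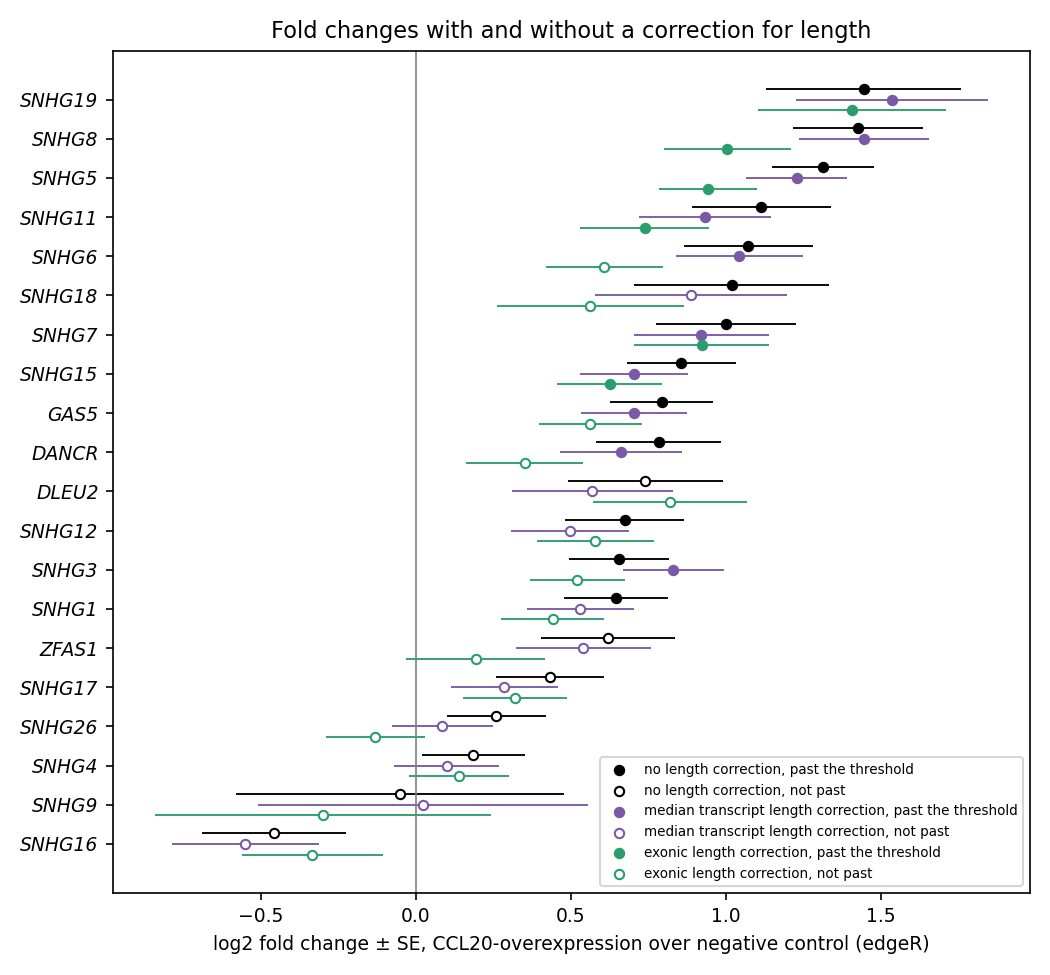
Log2 fold change with its SE (bars) of CCL20-overexpression over negative control for the 20 tested RNAs, in edgeR fits with no length correction (black), a correction for median transcript length (purple) and one for exonic length (green). Filled symbols have an adjusted p under 0.05, numbering 13, 10 and 6 in the 3 fits, and SNHG19, SNHG8 and SNHG5 stand at the top without correction.

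Genes that share the biology of these RNAs moved in several ways. The lists are of textbook membership, some genes stand in more than 1 list, and together they hold 71 tested genes, of which 29 rose and 14 fell. Both numbers were smaller when either negative control library was left out and larger when either CCL20-overexpression library was. Those of all tested genes did likewise. Of 19 tested protein-coding 5′TOP genes, mostly translation factors, 13 rose and 1, EEF1D, fell. The median log2 fold change of that list was 0.74, and it was 0.72 and 0.75 without negative control replicates 1 and 2. FAU, which encodes a ribosomal protein fused to a ubiquitin-like protein, had 257 and 333 FPKM in CCL20-overexpression cells against 117 and 125 FPKM in negative control cells (2.82-fold, adjusted p = 0.00433). NACA, a chaperone subunit at the ribosome's exit, had 69.1 and 57.6 FPKM in CCL20-overexpression cells against 32.6 and 29.9 FPKM in negative control cells (2.33-fold, adjusted p = 0.00433). The elongation factors split, with EEF1A1 at 1571 and 1375 FPKM in CCL20-overexpression cells against 1119 and 1163 FPKM in negative control cells (1.49-fold, adjusted p = 0.0240), and EEF2 at 370 and 532 FPKM against 561 and 638 FPKM (log2 fold change -0.20, adjusted p = 0.509). With the exonic length correction 12 of the 19 rose and 0 fell, and on the TPM scale 4 rose and 3 fell (median 0.25). Of all tested genes, 9.95% rose and 5.93% fell in the first fit, and 4.11% rose and 37.1% fell in the second.

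Protein-coding snoRNA hosts did not move as a block. In a list of 15 tested hosts, 4 rose (NOP56, EEF1B2, RACK1 and TPT1) and 3 fell (TNPO2, CHD8 and AP1G1). Their median log2 fold change was 0.15, and it was 0.21 and 0.12 without negative control replicates 1 and 2. It turned to -0.33 on the TPM scale and to -0.05 with scaling by total count. The medians of all tested genes on those scales were -0.49 and -0.20. TPT1, the translationally controlled tumour protein, had 131 and 116 FPKM in CCL20-overexpression cells against 66.8 and 69.8 FPKM in negative control cells and rose 2.08-fold (adjusted p = 0.00465). CHD8, a chromatin remodeller, had 2.76 and 2.70 FPKM in CCL20-overexpression cells against 6.90 and 6.47 FPKM in negative control cells and fell by 1.08 on the log2 scale (adjusted p = 0.00477), and TNPO2, a nuclear import receptor, fell by 1.05 (adjusted p = 0.00492). Across the 194 tested protein-coding genes with an annotated snoRNA in their span on the same strand, 51 rose and 43 fell, with a median of -0.0033. That balance depends on the scale, with 27 higher and 82 lower on the TPM scale (median -0.49). Of all tested genes, 4.11% rose and 37.1% fell on that scale, with a median of -0.49. Against 9.95% and 5.93% of all tested genes, 40 of the 194 were higher and 12 lower with the exonic length correction. Their median log2 fold change was 0.02 without negative control replicate 1, and -0.06 without negative control replicate 2. The 3 with the largest test statistics were long genes that fell, with PRRC2B at 3.10 and 2.64 FPKM in CCL20-overexpression cells against 13.5 and 12.4 FPKM in negative control cells (log2 fold change -1.98), USP34 at -2.38 and CNOT1, the scaffold of the deadenylase complex, at -1.72 (adjusted p = 0.00433 for each). The most abundant were short ribosomal protein genes that rose, RPS2 by 2.29-fold (adjusted p = 0.00646) and RPS12 by 2.60-fold (adjusted p = 0.00433). Of 9 tested noncoding hosts outside the named group, 3 rose, among them EPB41L4A-AS1 with 6.15 and 6.03 FPKM in CCL20-overexpression cells against 3.78 and 3.38 FPKM in negative control cells (1.96-fold, adjusted p = 0.00919), and 1, RPL32P3, fell (log2 fold change -1.11, adjusted p = 0.0139), while in DESeq2 1 rose and 1 fell.

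The core proteins that bind mature snoRNAs were mostly higher. Of 8 box C/D and H/ACA particle proteins 7 rose, all but DKC1, the pseudouridine synthase (log2 fold change 0.25), and the median log2 fold change was 0.83. Without negative control replicate 1 the median was 0.89, and without negative control replicate 2 it was 0.78. FBL, the box C/D methyltransferase fibrillarin, had 163 and 191 FPKM in CCL20-overexpression cells against 82.9 and 94.4 FPKM in negative control cells (2.31-fold, adjusted p = 0.00487). NOP10, a small H/ACA protein, had 157 and 159 FPKM in CCL20-overexpression cells against 78.6 and 70.0 FPKM in negative control cells (2.45-fold, adjusted p = 0.00433). NHP2, another H/ACA protein, rose 1.91-fold (adjusted p = 0.00709). With the exonic length correction 3 of the 8 rose, against 9.95% of all tested genes. NOP10 (log2 fold change 1.03, adjusted p = 0.00962) and FBL (0.77, adjusted p = 0.0208), both shorter than the median tested gene, still passed. NHP2 did not (0.46, adjusted p = 0.0792). Among 9 assembly factors of these particles 4 rose (ZNHIT3, PIH1D1, RUVBL1 and RUVBL2) and 0 fell, in DESeq2 too. Their median was 0.30, and it was 0.23 and 0.38 without negative control replicates 1 and 2. It turned to -0.18 on the TPM scale, where that of all tested genes was -0.49.

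Several factors of nonsense-mediated decay fell. Of 10 tested, 5 fell, among them UPF2, SMG1, SMG6 and SMG8, and 0 rose, with a median log2 fold change of -0.58. In DESeq2 6 fell and 0 rose, the same numbers as at an unadjusted p under 0.05 in edgeR. The median was -0.58 and -0.55 without negative control replicates 1 and 2. SMG6, the endonuclease of the pathway, had 0.629 and 0.4999 FPKM in CCL20-overexpression cells against 2.54 and 2.31 FPKM in negative control cells and fell by 1.90 on the log2 scale (SE 0.21, adjusted p = 0.00433). SMG1, the kinase that phosphorylates UPF1, had 4.95 and 3.29 FPKM in CCL20-overexpression cells against 12.5 and 11.8 FPKM in negative control cells and fell by 1.36 (SE 0.20, adjusted p = 0.00475). UPF1, the central helicase, had 10.3 and 14.2 FPKM in CCL20-overexpression cells against 20.4 and 22.5 FPKM in negative control cells (log2 fold change -0.60, adjusted p = 0.0627). These are long genes. With the exonic length correction 2 of the 10 fell and 1 rose, against 5.93% and 9.95% of all tested genes. SMG6 was still lower, with a log2 fold change of -1.43 (adjusted p = 0.00881), and SMG1 was at -0.49 (adjusted p = 0.0816). Of 6 exon junction complex genes, 2 rose, RBM8A and MAGOH. MAGOH had 40.2 and 39.0 FPKM in CCL20-overexpression cells against 22.2 and 21.1 FPKM in negative control cells (2.11-fold, adjusted p = 0.00496). The median of that list was 0.45, and it was 0.49 and 0.43 without negative control replicates 1 and 2. It turned to -0.04 on the TPM scale, where that of all tested genes was -0.49.

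Members of the mTORC1 and LARP1 list moved in both directions. Of 10 tested, 3 rose (MLST8, RHEB and EIF4EBP1) and 5 fell (MTOR, RPTOR, TSC1, EIF4EBP2 and LARP1). The median log2 fold change was -0.55, and it was -0.59 and -0.50 without negative control replicates 1 and 2. EIF4EBP1, a repressor of cap-dependent translation that mTORC1 inactivates, had 74.7 and 99.9 FPKM in CCL20-overexpression cells against 39.8 and 44.9 FPKM in negative control cells (2.39-fold, adjusted p = 0.00604). MTOR, the kinase itself, had 6.22 and 7.41 FPKM in CCL20-overexpression cells against 14.6 and 14.0 FPKM in negative control cells and fell by 0.86 on the log2 scale (adjusted p = 0.0117). LARP1 had 19.4 and 18.3 FPKM in CCL20-overexpression cells against 36.0 and 35.7 FPKM in negative control cells and fell by 0.72 (adjusted p = 0.0120). With the exonic length correction 2 of the 10 rose and 0 fell, against 9.95% and 5.93% of all tested genes. MTOR then had a log2 fold change of -0.31 (adjusted p = 0.280) and LARP1 one of -0.34 (adjusted p = 0.142). The median of the list was 0.09 in place of -0.55.

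**Figure D4:**
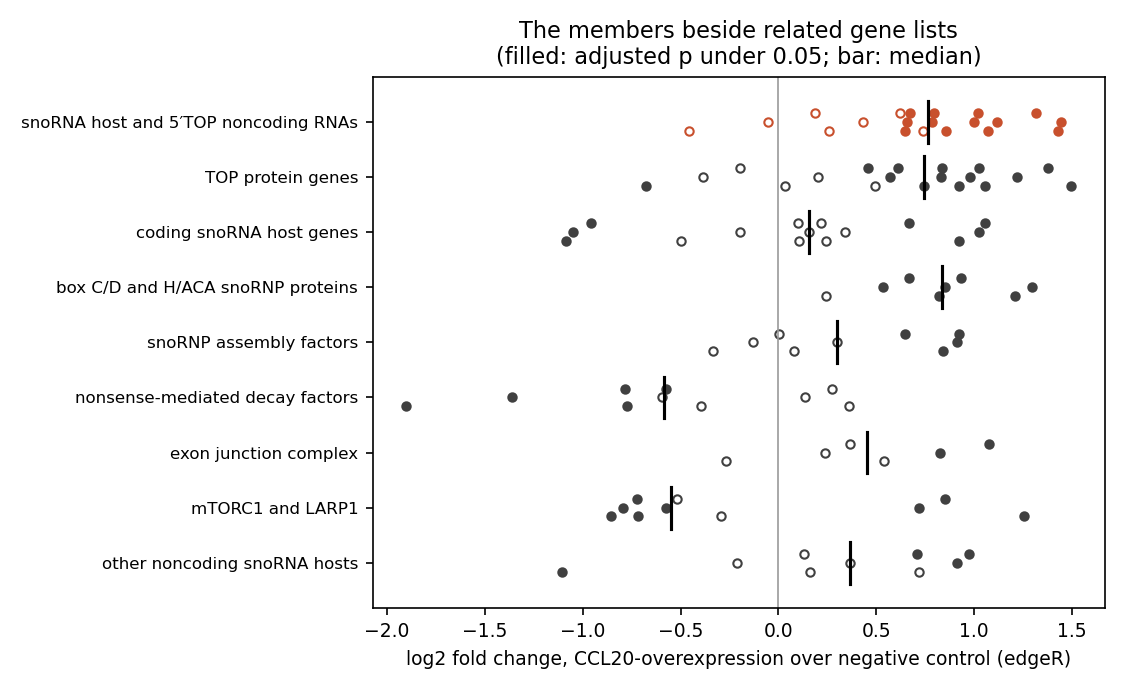
Log2 fold change of CCL20-overexpression over negative control for the 20 host and 5′TOP noncoding RNAs (red) and for each tested gene of 8 related lists (dark), with filled symbols for an adjusted p under 0.05 and a bar at each list's median. Medians lie at 0.76 for the host RNAs, 0.74 for the protein-coding 5′TOP genes and -0.58 for the nonsense-mediated decay factors.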

How the data were processed

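Each deposited table gives raw counts, as whole reads for each gene, and the FPKM values deposited beside them are those counts divided by a gene length and the total count, a length equal to the merged exons of GENCODE 29 for 99.7% of genes. Per the submitters' processing notes, HISAT2, HTSeq 0.13.5 and GRCh38 were used, while annotation, trimming and strand are details not given in the sources used here. Libraries were made with a NEBNext Ultra kit per the labels' protocols. All 29437 identifiers matched GENCODE 29, which gave positions, types and transcripts. RefSeq tables (GRCh38.p14) gave promoters and snoRNA genes.

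Samples were grouped by their labels. The 12168 genes whose FPKM averaged 1 or more were tested on their counts with glmQLFTest of edgeR 4.0.16 under R 4.3.3, with TMM factors, two-sided and with Benjamini-Hochberg adjustment, and called under 0.05. The SE was derived from the log2 fold change and F. TMM factors were 0.966 and 0.898 for CCL20-overexpression and 1.08 and 1.07 for negative control. Length corrections used a natural spline with 5 degrees of freedom as an offset. Alternatives were DESeq2 1.42.0, limma 3.58.1, other scalings, other filters, the replicate number as a block, and fits with 1 library left out. Scripts were tested on simulated data. The libraries of neither group agreed within sampling noise.

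The members and lists were chosen with earlier results of these data known. Every tested member is named, and of each list up to 3 genes past the threshold with the largest test statistic and the 2 highest in mean FPKM. Some genes the rule names are not reported here. Other genes were named after their values were seen. Starts in GENCODE and tracts read from the first base were added after seeing the data. Depth per library is in the results, and its precision covers counting error only.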

Additional observations from a re-analysis of the deposited data

How the results depend on the processing

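With 2 libraries a group, depth limits the genes with few reads (SNHG9, SNHG18 and the 6 untested). The 13 host RNAs that rose became 8 with scaling by total count, 3 on the TPM scale, 6 with limma on log2(FPKM + 0.1), 6 with the exonic length correction, and 3 to 16 when a library was left out. Among all tested genes, 10.5% rose with scaling by total count and 4.11% on the TPM scale. With that limma fit 7.53% rose, and with the exonic length correction 9.95%. When a library was left out, the median log2 fold change of the 20 host RNAs lay between 0.68 and 0.89. The number that fell, 0 of 20, became 1 on the TPM scale and with the replicate block (SNHG16 in both). In those fits 37.1% and 24% of all tested genes fell. The number was also 1 without a filter and with edgeR's own filter (SNHG28 in both), where 8.51% and 12.7% of all tested genes fell. For the related lists, 29 rises became 8 on the TPM scale, 14 with limma on log2(FPKM + 0.1) and 4 to 40 when a library was left out. On the TPM scale 4.11% of all tested genes rose, and with that limma fit 7.53%. The 14 falls of the related lists became 23 on the TPM scale, where 37.1% of all tested genes fell. With the exonic and transcript length corrections they became 3 and 9, where 5.93% and 13.5% of all tested genes fell. The causes of these shifts were not tested. Scaling by total count moved the median of all genes to -0.20, and limma on log2(FPKM + 1) to -0.17.

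With the replicate number as a block, 15 host RNAs rose and 1 fell, where 2840 of the 12168 tested genes rose (23.3%) and 2918 fell. Deviations of libraries with equal numbers correlated at 0.265, but with 2 pairs and no shared batch in the labels the numbers name libraries only.

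Some log2 fold changes turned sign, none of them past the threshold. SNHG26 was -0.23 on the TPM scale and -0.13 with the exonic length correction, and SNHG17 was -0.064 on the TPM scale. SNHG4 was -0.017 with total count scaling, -0.30 on the TPM scale, -0.017 with limma on log2(FPKM + 1) and -0.019 with limma on log2(FPKM + 0.1). SNHG9 was 0.0019 without a filter, 0.0061 with edgeR's own filter, 0.022 with the transcript length correction and between -0.66 and 0.37 when a library was left out, above 0 without CCL20-overexpression replicate 2 (0.37) and without negative control replicate 2 (0.11). The 15 genes with a tract became 11 within 5 bases, 6 with the motif from the first base and, among tested genes in GENCODE, 13.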
